A study of Mus musculus with 28 samples.

Results

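The genes described here are the 6 of the platelet-derived growth factor (PDGF) system that the data list: the receptors Pdgfra and Pdgfrb and the ligands Pdgfa, Pdgfb, Pdgfc and Pdgfd. They were taken by gene name from 22919 genes in tables of nascent transcription. The family was chosen by the values of Pdgfra in these same tables, namely its changes between the hairpin arms and with drug, so they are given as a description with no test, and the other 5 genes were tested. The cells were forebrain cultures (cortex and hippocampus) from CD1 mouse embryos at embryonic day 18, labelled as a mix of neurons, astrocytes and oligodendrocyte precursor cells, and each biological replicate pooled tissue of several embryos. Lentivirus carrying a control hairpin RNA (shCtrl) or a hairpin against Rai1, a chromatin-binding protein (shRai1), was added on day 14 in culture, so every group was infected. On day 17 the cultures received water as vehicle, tetrodotoxin (TTX, 1 µM), which blocks sodium channels and silences firing, or bicuculline (BIC, 20 µM), which blocks GABA-A receptors and raises firing, for 4 h. Bromouridine was present for the last 20 min, and RNA that had taken it up was isolated and sequenced (Bru-seq), so the values reflect transcription in that window. The 16 libraries form 6 groups of 3, except shCtrl with vehicle and shCtrl with BIC, which hold 2 each. By the sample titles, shCtrl vehicle lacks replicate 3 and shCtrl BIC lacks replicate 1, so these groups share only replicate 2. Comparisons of either group with a full group are thus unbalanced by replicate number.

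PDGF ligands are secreted dimers, and each binds a pair of receptor tyrosine kinase chains. The A and C chains act mainly through the alpha receptor, while the B and D chains act on the beta receptor, and B also on the alpha receptor. In the forebrain, Pdgfra is a defining gene of oligodendrocyte precursor cells, which need PDGF-A from neurons and astrocytes to divide and survive. Pdgfrb marks pericytes and other mural cells of vessels, which PDGF-B from endothelium recruits. PDGF-C and PDGF-D are made as latent forms that proteases must cut.

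The promoters of Pdgfra and of its ligands Pdgfa and Pdgfc, the tested members with the largest called changes with TTX, are shown first, as the 250 bases before the RefSeq start on the gene's own strand (GRCm38.p6). They are Pdgfra at chr5:75152001-75152250 (plus strand), Pdgfc at chr3:81036166-81036415 (plus strand) and, of the 2 starts listed for Pdgfa, the outer one at chr5:138994945-138995194 (minus strand). Capitals mark the GC box bound by Sp1 family factors, searched as GGGCGG on both strands. The promoter of Pdgfb is not shown.
Pdgfra: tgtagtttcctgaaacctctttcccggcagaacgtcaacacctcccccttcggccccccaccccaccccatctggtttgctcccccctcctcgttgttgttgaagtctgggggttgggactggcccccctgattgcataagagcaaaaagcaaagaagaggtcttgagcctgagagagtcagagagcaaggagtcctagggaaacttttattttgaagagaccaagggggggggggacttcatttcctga
Pdgfc: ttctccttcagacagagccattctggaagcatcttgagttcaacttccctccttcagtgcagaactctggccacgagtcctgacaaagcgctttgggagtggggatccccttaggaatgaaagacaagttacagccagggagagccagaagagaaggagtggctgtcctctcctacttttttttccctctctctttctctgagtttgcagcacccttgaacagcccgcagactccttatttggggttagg
Pdgfa: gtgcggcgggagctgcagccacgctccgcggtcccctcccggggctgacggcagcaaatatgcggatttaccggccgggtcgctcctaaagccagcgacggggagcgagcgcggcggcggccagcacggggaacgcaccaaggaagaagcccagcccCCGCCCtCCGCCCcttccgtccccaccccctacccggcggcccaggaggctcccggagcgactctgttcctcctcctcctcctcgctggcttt
The Pdgfa window held 2 GC boxes, read here on the opposite strand, and the Pdgfra and Pdgfc windows held none. The other Pdgfa start had 1. GC boxes were found in 35.7% of all 32851 promoter windows of 300 bases (250 before the start to 50 after it). Neither Pdgfa window, nor that of Pdgfra, Pdgfc or Pdgfd, held the cAMP response element TGACGTCA (1.79% of all windows), the AP-1 site TGANTCA (7.81%), the E-box CACGTG (7.15%) or the Egr site GCGTGGGCG (0.612%). Both strands were searched, and an Egr match followed by G also holds the letters of a GC box. A match or its absence describes these letters only. These 300-base windows differed in composition: the outer Pdgfa window was 73.3% G+C with 37 CpG, against 51% and 5 for Pdgfra, 55% and 8 for Pdgfc, and medians of 52.7% and 7 over all windows.

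The libraries themselves have no values here. The files hold the authors' comparison tables, each with a log2 change and its standard error (SE), and one pooled FPKM (fragments scaled by gene length and by library size) with lower and upper bounds per condition, so the spread over libraries appears only in the SE and the depth of single libraries is unknown. Replicates are separate pools of embryos. All 7 tables come from 1 fit with 1 mean normalized count per gene, and the comparisons that share the 2 shCtrl vehicle libraries are not independent. Markers of the labelled cell types were the highest: summed FPKM in shCtrl vehicle was 733 for 10 neuron markers, 542 for 12 astrocyte markers and 216 for 16 oligodendrocyte precursor markers, against 84.1 for 12 myelinating oligodendrocyte, 32.7 for 12 mural, 26.3 for 10 microglia, 18.2 for 8 fibroblast and 3.25 for 8 endothelial markers. The targeted gene was not called as changed in nascent RNA in any treatment. In the authors' deposited tables, the log2 change of Rai1 between shRai1 and shCtrl was 0.16 (SE 0.0730, adjusted p = 0.357, DESeq2 Wald test) in vehicle. It was -0.12 (SE 0.0643, adjusted p = 0.9998) in TTX and 0.03 (SE 0.0728, adjusted p = 0.9997) in BIC, per the authors' deposited tables. A hairpin acts on finished transcripts, so these values do not check the knockdown, and the arms are named by their labels.

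Per unit length, the ligands Pdgfa and Pdgfb were transcribed most and Pdgfd hardly at all. In shCtrl cultures with vehicle, the authors' pooled FPKM was 21.8 for Pdgfa (bounds 14.5 to 29.1) and 14.6 for Pdgfb (10.7 to 18.5). It was 5.65 for Pdgfra (4.04 to 7.27), 1.40 for Pdgfrb (0.747 to 2.05) and 1.32 for Pdgfc (0.556 to 2.09), and Pdgfd was listed at 0. The bounds of Pdgfa and Pdgfb overlapped, as did those of Pdgfrb and Pdgfc, while those of Pdgfra lay below the first pair and above the second. With TTX the shCtrl values were 13.9 for Pdgfa, 16.0 for Pdgfb, 4.70 for Pdgfra, 1.46 for Pdgfrb, 0.744 for Pdgfc and 0.188 for Pdgfd. With BIC they were 21.8 for Pdgfa, 13.9 for Pdgfb, 1.08 for Pdgfrb, 1.39 for Pdgfc and 0 for Pdgfd, and Pdgfra had bounds of 3.55 to 6.45. Pdgfa thus stood above Pdgfb in vehicle and BIC and below it in TTX, with overlapping bounds each time. The mean normalized count per kb of gene ordered the family similarly, at 44.4 for Pdgfa, 27.6 for Pdgfb, 7.32 for Pdgfra, 3.59 for Pdgfrb, 2.07 for Pdgfc and 0.121 for Pdgfd.

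**Figure D1:**
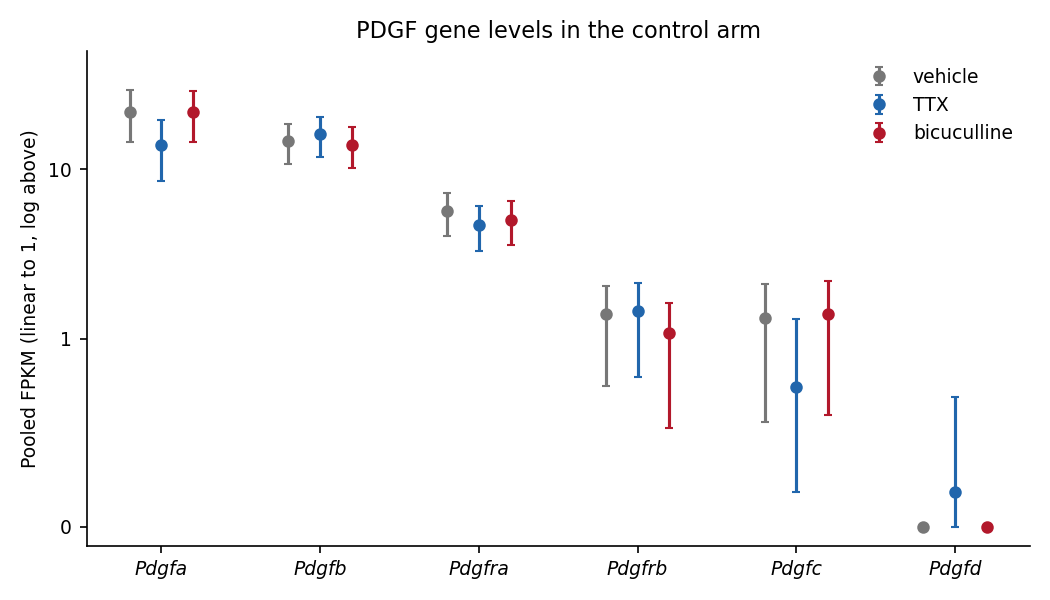
Pooled FPKM of the 6 PDGF genes in shCtrl cultures with vehicle, TTX or BIC, with the lower and upper bounds of the authors' table, on an axis that is linear up to 1 and logarithmic above. Pdgfa and Pdgfb lie highest, between 13.9 and 21.8, followed by Pdgfra, and Pdgfd lies at or near 0.

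Pdgfra, the receptor of oligodendrocyte precursors, had opposite responses to silencing in the 2 arms. In the authors' deposited tables, its mean normalized count was 336, and TTX gave a log2 change of -0.76 (SE 0.128) in shCtrl cultures and 1.10 (SE 0.118) in shRai1 cultures, which is 1.70-fold lower and 2.14-fold higher. The difference between these responses was 1.86 (SE 0.175). BIC gave -0.26 (SE 0.141) in shCtrl and 0.20 (SE 0.125) in shRai1, per the authors' deposited tables, a difference of 0.47 (SE 0.188). The TTX values thus had opposite signs in the arms, and both BIC values were smaller in size than either.

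Between the arms, Pdgfra was lower with shRai1 in vehicle and in BIC, and higher in TTX. The authors' deposited tables gave log2 changes of -1.37 (SE 0.132) in vehicle, -0.90 (SE 0.132) in BIC and 0.50 (SE 0.115) in TTX, or 2.58-fold lower, 1.87-fold lower and 1.41-fold higher. The vehicle value was the lowest of all 20107 genes named in that table, and it is among the values that led to the family being chosen. Genes with very few counts had changes near 0 with small SEs. Kcnj8, on a mean count of 0.223, had -0.009 (SE 0.136) in vehicle. The rank therefore favours genes with more counts. Set against shCtrl vehicle, the 6 conditions of Pdgfra put together from these tables ran in the order shCtrl vehicle (0), shCtrl BIC (-0.26), shRai1 TTX (-0.27), shCtrl TTX (-0.76), shRai1 BIC (-1.16) and shRai1 vehicle (-1.37). Neighbours in this order that no table compares directly have no SE for their difference. In bulk cultures, fewer cells of a type and less transcription per cell cannot be told apart.

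**Figure D2:**
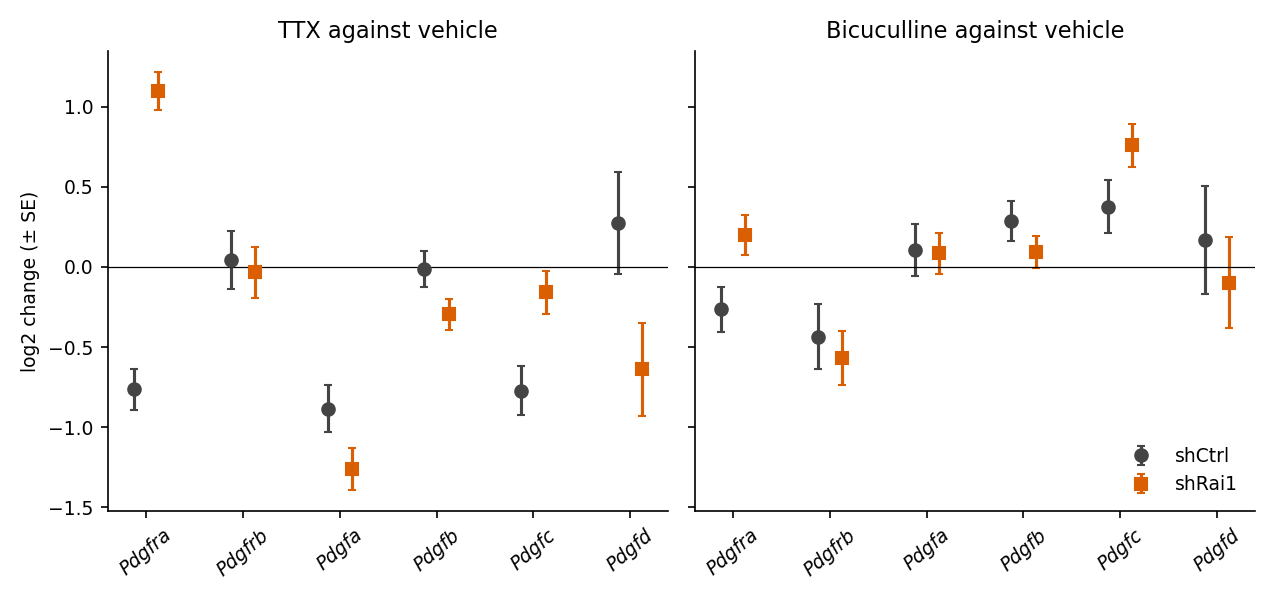
Log2 change with TTX or BIC for each PDGF gene in shCtrl and shRai1 cultures, with SE bars, from the authors' deposited tables. Pdgfra lies at -0.76 with TTX in shCtrl and at 1.10 in shRai1, while Pdgfa lies below 0 with TTX in both arms.

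The pooled FPKM showed a smaller change of Pdgfra with TTX than the count tables did. Its log2 ratio of TTX to vehicle in shCtrl was -0.27 from FPKM, against -0.76, per the authors' deposited table, and that of BIC to vehicle was -0.18 against -0.26. The bounds of all 3 shCtrl FPKM values overlapped. For the 3 shRai1 columns of the FPKM table the treatment names did not follow the comparison tables: across 5953 genes, the column named untreated knockdown correlated at 0.891 with the shRai1 TTX condition of the tables and at 0.228 with shRai1 vehicle. The column named for BIC correlated best with shRai1 vehicle, at 0.771, and the one named for TTX with shRai1 BIC, at 0.890. The 3 shRai1 values of Pdgfra are therefore given with no treatment assigned, as 2.42 (1.56 to 3.27), 2.58 (1.68 to 3.47) and 4.92 (3.50 to 6.33) FPKM. The value of 4.92 is in the column named untreated. Taken by that name, its log2 ratio to shCtrl vehicle would be -0.20, where the vehicle comparison of the arms gave -1.37.

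Pdgfra spans 45.9 kb at chr5:75548316-75594229 in the authors' FPKM table (mm9 per the submitters' processing notes). The microRNA entry Mir7025 has the same interval there, with a mean of 20.6 FPKM against 4.21 for Pdgfra, and is not among the genes of the comparison tables. Pdgfb shares its interval with Mir7213, which was listed at 0 FPKM, and Pdgfd with Ddi1, which had a mean normalized count of 0, per the authors' deposited tables. The other members shared their interval with no entry. Near Pdgfra, Gm19583 ends 5.18 kb before it and Kit, another receptor kinase gene, starts 377 kb after it. In the authors' deposited tables the knockdown changes of Gm19583 rested on a mean count of 8.75, and Kit gave 0.10 (SE 0.102, adjusted p = 0.780, DESeq2) in vehicle. Of the 7 neighbours within 500 kb that were tested, 4 had a mean count of at least 50 (Fip1l1, Lnx1, Chic2 and Kit), and their changes between the arms ranged from -0.17 to 0.27 over the 3 treatments, with 0 of 12 called by DESeq2 and 1 at an unadjusted p under 0.05. With 0.857%, 0.0283% and 0.00944% of all genes called in vehicle, TTX and BIC, this count of 0 says nothing particular about these neighbours.

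The genes whose profile over the 6 conditions was most like that of Pdgfra were Ect2 (r = 0.974), Mki67 (0.961), Cdca2 (0.955), Cspg4 (0.950) and Pros1 (0.939), out of 5021 genes whose mean count was 50 or more and whose profile varied enough. Ect2, Mki67 and Cdca2 are used by dividing cells, Cspg4 (NG2) is a surface proteoglycan of oligodendrocyte precursors, and Pros1 is protein S. These r values describe 6 conditions from 1 fit. In shRai1 vehicle relative to shCtrl vehicle, Mki67 stood at -0.96, Pros1 at -0.82, Cspg4 at -0.78, Ect2 at -0.75 and Cdca2 at -0.69, per the authors' deposited table, each closer to 0 than Pdgfra. In shRai1 TTX they lay between -0.32 (Cspg4) and -0.05 (Ect2), near the -0.27 of Pdgfra. By the smallest root mean square difference instead of r, the 5 were Mki67, Ect2, Sox10, Cspg4 and Bcas1. Among the other members that could be set beside it, r with Pdgfra was -0.34 for Pdgfa, -0.49 for Pdgfb, 0.11 for Pdgfc and 0.11 for Pdgfrb, and Pdgfd was below the count minimum.

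**Figure D3:**
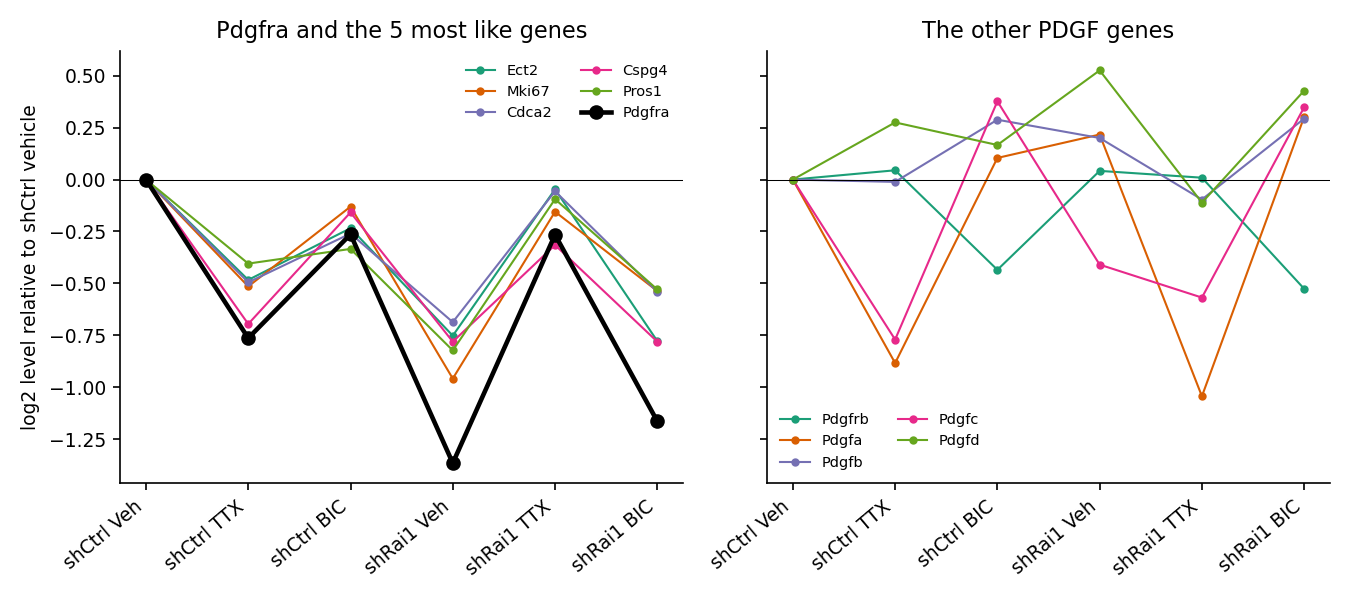
Log2 level relative to shCtrl vehicle over the 6 conditions for Pdgfra and the 5 genes with the most similar profile (left) and for the other 5 members (right), put together from the authors' deposited tables, with lines only to guide the eye. Pdgfra is lowest in shRai1 vehicle at -1.37 and stands at -0.27 in shRai1 TTX, and Mki67 goes from -0.96 to -0.15.

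Among the 16 other oligodendrocyte precursor markers, several moved with Pdgfra. In shCtrl cultures TTX lowered 6 and raised 1 (of 14 with an adjusted p, where 26.7% of all genes with one were called), and in shRai1 cultures it lowered 2 and raised 6 (30.5% of all genes). The response differed between the arms for 5 of 16, all higher in shRai1, against 0.926% of 18466 genes (Wald test on the difference of deposited log2 changes, Benjamini-Hochberg adjusted). They were Cspg4 (difference 1.16, SE 0.207, adjusted p = 3.70e-05), Olig2 (1.10, SE 0.201, 6.29e-05), Sox10 (1.59, SE 0.353, 0.00349), Olig1 (0.76, SE 0.174, 0.00491) and Gpr17 (2.41, SE 0.578, 0.00952, on a mean count of 8.97). Olig1, Olig2 and Sox10 are transcription factors of the lineage, and Gpr17 is a receptor of committed precursors. The median difference over the list was 0.47, against -0.002 over all genes. The markers share these libraries and a cell type with Pdgfra, so they are not independent of each other or of its values. The list was also chosen with earlier results of these data known, so the count is a description beside Pdgfra and not separate support. Markers of other cell types moved as well: the TTX response also differed between the arms for 1 of 12 astrocyte markers, Glul (0.40, SE 0.104, adjusted p = 0.0229), and 1 of 10 neuron markers, Rbfox3 (-0.40, SE 0.0902, adjusted p = 0.00491). Of 11 astrocyte markers with an adjusted p, TTX lowered 5 and raised 0 in shCtrl, and lowered 1 and raised 2 in shRai1. Their part in the values of Pdgfra was not tested.

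Cspg4 and Olig1 were called in opposite directions in the arms. In the authors' deposited tables TTX gave Cspg4 -0.70 (SE 0.154, adjusted p = 6.23e-05, DESeq2) in shCtrl and 0.47 (SE 0.139, adjusted p = 0.00430) in shRai1, and Olig1 -0.47 (SE 0.129, adjusted p = 0.00172) and 0.29 (SE 0.117, adjusted p = 0.0422). Olig2 fell in shCtrl, at -0.84 (SE 0.151, adjusted p = 3.39e-07), and stood at 0.26 (SE 0.134, adjusted p = 0.137) in shRai1, per the authors' deposited tables. Other markers did not follow Pdgfra: Vcan, a matrix proteoglycan, fell with TTX in both arms, at -1.47 (SE 0.214, adjusted p = 2.01e-10) and -0.94 (SE 0.194, adjusted p = 1.41e-05), and rose with BIC, at 1.67 and 2.03, per the authors' deposited tables. C1ql1 rose with TTX in both arms, at 1.02 (SE 0.296, adjusted p = 0.00350) and 0.99 (SE 0.260, adjusted p = 0.000935), per the authors' deposited tables.

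Between the arms in vehicle, 3 of 13 precursor markers with an adjusted p were lower with shRai1 and 0 higher, against 0.857% of all genes. The authors' deposited table gave Olig1 -0.73 (SE 0.130, adjusted p = 2.89e-05, DESeq2), Cspg4 -0.78 (SE 0.153, adjusted p = 0.000428) and Olig2 -0.60 (SE 0.149, adjusted p = 0.0164). The list's median was -0.33, against -0.01 over all genes. Here too the markers are not independent of each other or of Pdgfra. In TTX and in BIC 0 of 16 were called by DESeq2, where 0.0283% and 0.00944% of all genes were. These counts of 0 therefore say nothing particular about the markers. In each treatment 4 had an unadjusted p under 0.05, and the medians were 0.17 in TTX and -0.15 in BIC. In vehicle 2 astrocyte markers, Glul (-0.29, SE 0.0780, adjusted p = 0.0324) and Aldoc (-0.56, SE 0.153, adjusted p = 0.0392), were also lower and 1 neuron marker, Rbfox3 (0.24, SE 0.0678, adjusted p = 0.0494), was higher in the authors' deposited table. Of 12 markers of myelinating oligodendrocytes, 5 had an adjusted p there and 0 were called, with 1 at an unadjusted p under 0.05. Summed FPKM of the precursor markers was 216, 171 and 201 in shCtrl with vehicle, TTX and BIC, and from 168 to 190 in the 3 shRai1 columns. The part of cell numbers in the values of Pdgfra was not tested.

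**Figure D4:**
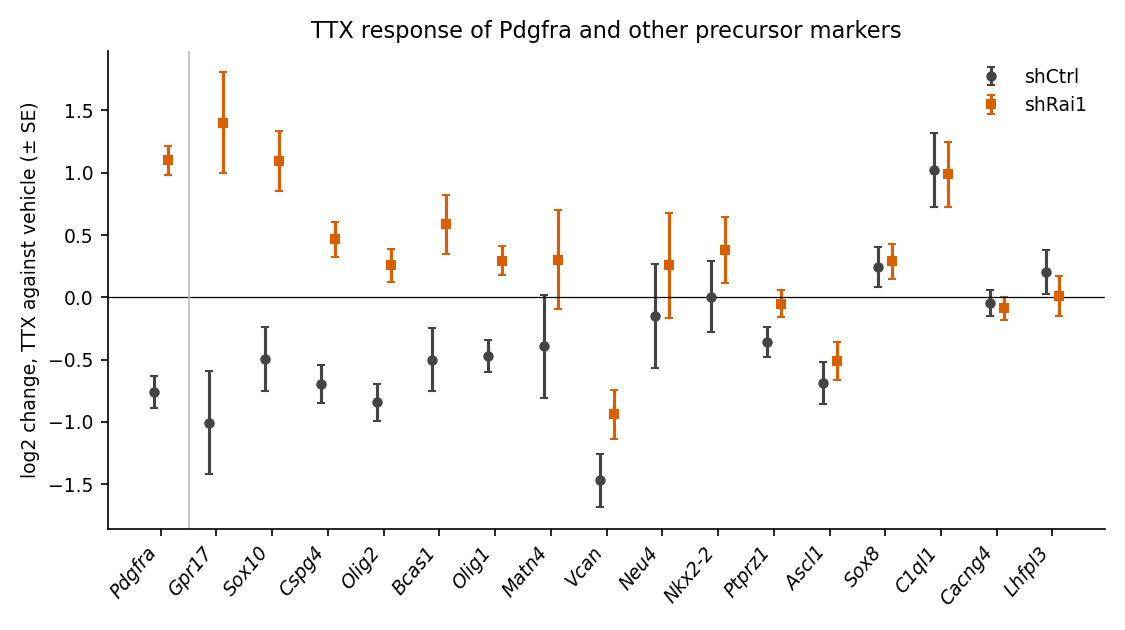
Log2 change with TTX against vehicle in shCtrl (circles) and shRai1 (squares) for Pdgfra and the 16 other oligodendrocyte precursor markers, ordered by the difference between the arms, with SE bars, from the authors' deposited tables. Pdgfra lies at -0.76 and 1.10 and Cspg4 at -0.70 and 0.47, on opposite sides of 0, while both Vcan values lie below 0 and both C1ql1 values above it.

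Pdgfrb, the receptor of mural cells, fell with BIC in shRai1 cultures and did not pass the test for TTX or for shRai1 against shCtrl. In the authors' deposited tables the change of Pdgfrb with BIC was -0.57 (SE 0.167, adjusted p = 0.00220, DESeq2) in shRai1 and -0.43 (SE 0.202, adjusted p = 0.0825) in shCtrl. These responses differed by -0.13 (SE 0.262, adjusted p = 1.00, 95% interval -0.65 to 0.38), so a difference between the arms was not detected. TTX gave 0.04 (SE 0.180, adjusted p = 0.898) in shCtrl and -0.03 (SE 0.160, adjusted p = 0.913) in shRai1, per the authors' deposited tables. The shCtrl FPKM of Pdgfrb gave log2 ratios of 0.06 for TTX and -0.38 for BIC. Between the arms in vehicle the value was 0.04 (95% interval -0.31 to 0.39, adjusted p = 0.959), per the authors' deposited table. Over the same treatments, 0 of 12 mural markers were called by DESeq2 in any table, with at most 2 at an unadjusted p under 0.05, and only 4 to 7 of them had an adjusted p in the vehicle knockdown and drug response tables. Over all genes, 26.7% and 30.5% were called with TTX in shCtrl and shRai1, and 34.4% and 42.5% with BIC. Between the arms, 0.857%, 0.0283% and 0.00944% of all genes were called in vehicle, TTX and BIC. Of these markers of pericytes and smooth muscle, Kcnj8, Anpep and Des were listed at 0 FPKM in shCtrl vehicle. The other 9 were above 0. The highest means over the 6 conditions were 10.3 for Abcc9 and 9.30 for Tagln. Next came Higd1b (4.86, on a mean count of 0.132), Acta2 (3.60), Ndufa4l2 (3.33, on a mean count of 1.78) and Notch3 (2.76). The summed mural FPKM was 32.7, 37.4 and 36.4 in shCtrl with vehicle, TTX and BIC. Among 8 fibroblast markers, 1 fell with BIC in shCtrl, and 1 rose and 2 fell in shRai1, of 7 with an adjusted p, where 34.4% and 42.5% of all genes were called. Fn1, a matrix glycoprotein, rose in shRai1, at 0.39 (SE 0.112, adjusted p = 0.00178), per the authors' deposited table. Col5a1, a collagen, fell with BIC in both arms, at -0.34 (SE 0.130, adjusted p = 0.0293) and -0.35 (SE 0.103, adjusted p = 0.00254), and Dcn fell in shRai1, at -1.17 (SE 0.307, adjusted p = 0.000552), per the authors' deposited tables. By r, the profile of Pdgfrb was most like those of Unc80 (r = 0.999), of the NALCN channel complex, and Emx1 (r = 0.998), a cortical homeobox gene, among 9657 genes, and by the smallest root mean square difference Cdk4 and Arl3 were nearest. Pdgfrb spans 39.9 kb at chr18:61204804-61244721.

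Among the tested members, 2 of 5 fell with TTX in each arm and 0 rose, where 14.9% of genes in shCtrl and 16.8% in shRai1 fell (26.7% and 30.5% in either direction), and a count over 5 members sets them apart from neither share. Pdgfa, the ligand that drives oligodendrocyte precursors, was in both pairs. In the authors' deposited tables its log2 change was -0.88 (SE 0.148, adjusted p = 4.24e-08, DESeq2) in shCtrl and -1.26 (SE 0.131, adjusted p = 5.13e-20) in shRai1, or 1.84-fold and 2.40-fold lower. The responses differed by -0.38 (SE 0.198, adjusted p = 0.586), so the drop with TTX was not shown to depend on the arm. BIC gave 0.10 (SE 0.161, adjusted p = 0.679) and 0.09 (SE 0.129, adjusted p = 0.651), per the authors' deposited tables. The FPKM of the shCtrl arm gave log2 ratios of -0.65 for TTX and -0.003 for BIC, on the same side for TTX. By r, its nearest profiles among 4547 genes were those of Cap2 (r = 0.998), an actin-binding protein, and Hsd17b7 (r = 0.997), an enzyme of cholesterol synthesis, and by the smallest difference those of Spag4 and Hip1. Pdgfa and its receptor thus both had negative log2 changes with TTX in shCtrl and opposite signs in shRai1.

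Pdgfc, the other alpha receptor ligand, fell with TTX in shCtrl and rose with BIC in shRai1. The authors' deposited tables gave -0.77 (SE 0.152, adjusted p = 5.24e-06, DESeq2) for TTX in shCtrl and -0.16 (SE 0.135, adjusted p = 0.417) in shRai1. For BIC they gave 0.38 (SE 0.163, adjusted p = 0.0580) in shCtrl and 0.76 (SE 0.132, adjusted p = 6.69e-08) in shRai1, per the authors' deposited tables. The shCtrl FPKM of Pdgfc gave log2 ratios of -0.83 for TTX and 0.07 for BIC. Neither response was shown to differ between the arms: the differences were 0.61 (SE 0.204, adjusted p = 0.146) for TTX and 0.38 (SE 0.210, adjusted p = 1.00) for BIC. From TTX to BIC, Pdgfc stood 1.15 higher on the log2 scale in shCtrl and 0.92 higher in shRai1, and Pdgfa 0.99 and 1.35 higher, against 0.50 and -0.90 for Pdgfra. By r, its nearest profiles among 5839 genes were those of Snhg1 (r = 0.997), a noncoding host of small nucleolar RNAs, and Kif18a (r = 0.996), a mitotic kinesin, and by the smallest difference those of St3gal6 and Dtl. Pdgfc spans 178 kb at chr3:80840338-81017953, and Pdgfa 18.0 kb at chr5:139452929-139470907.

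Pdgfb, the vessel ligand that also binds the alpha receptor, moved little. In the authors' deposited tables TTX gave -0.01 (SE 0.113, adjusted p = 0.964, DESeq2) in shCtrl and -0.30 (SE 0.0985, adjusted p = 0.0118) in shRai1, where it fell 1.23-fold. The responses differed by -0.29 (SE 0.150, adjusted p = 0.589). BIC gave 0.29 (SE 0.124, adjusted p = 0.0572) in shCtrl and 0.09 (SE 0.0976, adjusted p = 0.488) in shRai1, per the authors' deposited tables, while the shCtrl FPKM gave log2 ratios of -0.07 for BIC and 0.13 for TTX. By r, its nearest profiles among 11374 genes were those of Csnk1d (r = 0.990), a casein kinase, and Cnih3 (r = 0.989), an AMPA receptor auxiliary protein, and by the smallest difference those of Il21r and Sergef. Markers of endothelium, the textbook source of PDGF-B, summed to 3.25 FPKM in shCtrl vehicle, and Pdgfb stood at 14.6. FPKM of different genes does not measure cell numbers, and which cells transcribed Pdgfb was not tested. Pdgfd, the other beta receptor ligand, had a mean normalized count of 25.3, and its largest change in a response table was -0.64 (SE 0.290, adjusted p = 0.0820) for TTX in shRai1, per the authors' deposited table. Pdgfb spans 18.9 kb at chr15:79826306-79845238 and Pdgfd 209 kb at chr9:6168612-6377519. Pdgfd was below the floor of 0.1 FPKM for the test between arms, which therefore covered 4 members.

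With BIC, 0 of the 5 tested members were called in shCtrl by DESeq2, where 34.4% of genes were, and 3 had an unadjusted p under 0.05 (Pdgfrb, Pdgfb and Pdgfc). In shRai1 2 of 5 were called, Pdgfc higher and Pdgfrb lower, where 42.5% of genes were called. The count in shCtrl depends on the adjustment: it was 2 (Pdgfb and Pdgfc) when the adjustment covered genes whose mean count was 50 or more, or with centred log2 changes. Nothing is read from these counts about the family.

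For shRai1 against shCtrl, 0 of the 5 tested members were called by DESeq2 in vehicle, TTX or BIC, where 0.857%, 0.0283% and 0.00944% of genes were. At an unadjusted p under 0.05 there was 1 in vehicle, Pdgfc, and 0 in TTX and BIC. In vehicle the authors' deposited table gave Pdgfc -0.41 (SE 0.149, adjusted p = 0.208), Pdgfa 0.22 (SE 0.145, adjusted p = 0.610), Pdgfb 0.20 (SE 0.112, adjusted p = 0.508) and Pdgfd 0.53 (SE 0.313, adjusted p = 0.554). The 95% intervals reached from -0.70 to -0.12 for Pdgfc, -0.07 to 0.50 for Pdgfa, -0.02 to 0.42 for Pdgfb and -0.09 to 1.14 for Pdgfd. The differences between arms in the response to TTX or BIC called 0 of 4 members, against 0.926% and 0.0217% of genes, with 2 of 5 (Pdgfc and Pdgfd) at an unadjusted p under 0.05 for TTX and 0 for BIC.

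**Figure D5:**
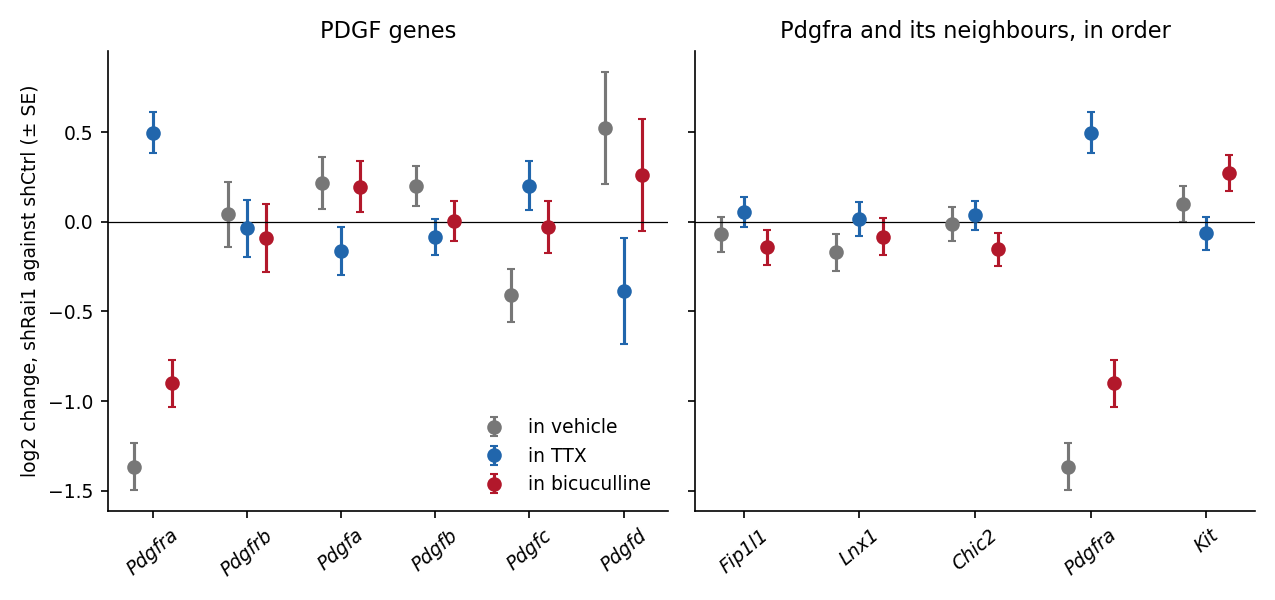
Log2 change of shRai1 against shCtrl in vehicle, TTX and BIC, with SE bars, for the 6 PDGF genes (left) and for Pdgfra beside its neighbours with a mean count of 50 or more (right, in chromosome order), from the authors' deposited tables. Pdgfra lies at -1.37, 0.50 and -0.90, the other 5 members lie between -0.41 and 0.53, and the neighbours between -0.17 and 0.27.

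The wider pathway was read from 4 lists of 53 genes: receptor-proximal signalling, attenuators, ligand processing, and related receptor kinases with their ligands. Of these, 4 rose and 13 fell with TTX in shCtrl, 4 rose and 15 fell in shRai1, 18 rose and 11 fell with BIC in shCtrl, and 19 rose and 11 fell in shRai1. Over all genes, the shares called in the same comparisons were 26.7%, 30.5%, 34.4% and 42.5%. Between the arms DESeq2 called 0 of 53 in each treatment, with 6 at an unadjusted p under 0.05 in vehicle and 1 each in TTX and BIC. With 0.857%, 0.0283% and 0.00944% of all genes called there, a count of 0 among 53 says nothing particular about these genes. Among 20 genes of receptor-proximal signalling, 7 rose and 4 fell with BIC in shCtrl, where 34.4% of all genes were called. Fyn, a Src family kinase, rose with BIC by 0.92 (SE 0.0720, adjusted p = 4.63e-35) and 0.93 (SE 0.0562, adjusted p = 7.65e-60) in shCtrl and shRai1, per the authors' deposited tables. Grb2, the adaptor that links receptors to Ras, rose by 0.90 and 0.75, and Gab1, a docking protein, had -0.58 and -0.59, per the authors' deposited tables. Stat3, a transcription factor, fell with TTX, at -0.33 (SE 0.0869, adjusted p = 0.00112) and -0.39 (SE 0.0764, adjusted p = 3.48e-06), per the authors' deposited tables. Of 8 genes that limit receptor signalling, 2 rose and 3 fell with BIC in shCtrl, against the same share. Cbl, a ubiquitin ligase of active receptors, rose by 0.56 and 0.57, and Lrp1, an endocytic receptor, had -0.50 and -0.56 with BIC in the authors' deposited tables.

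Some genes that process or bind the ligands had large changes with BIC. Of 10, 4 rose and 2 fell in shCtrl, where 34.4% of all genes were called, and 5 rose and 1 fell in shRai1, where 42.5% were, with list medians of 0.80 and 0.84 against -0.02 and 0.003 over all genes. Pcsk6, a proprotein convertase, rose by 2.01 (SE 0.135, adjusted p = 5.22e-48) and 1.76 (SE 0.106, adjusted p = 1.02e-59), and Plat, the protease that activates PDGF-C, by 1.09 (SE 0.113, adjusted p = 3.32e-20) and 1.38 (SE 0.0894, adjusted p = 6.71e-52), per the authors' deposited tables. Furin, the convertase that cuts the A and B precursors, fell with TTX, at -0.45 (SE 0.106, adjusted p = 0.000249) and -0.73 (SE 0.0940, adjusted p = 1.90e-13), per the authors' deposited tables. Nrp1, a co-receptor that binds PDGF, also fell with TTX, at -0.47 and -0.60, per the authors' deposited tables. Of 15 related receptor kinases and ligands, Kit, the neighbour of Pdgfra, fell with TTX in both arms, at -1.28 (SE 0.104, adjusted p = 2.11e-32) and -1.44 (SE 0.0918, adjusted p = 5.05e-53), and rose with BIC by 0.60 and 0.77, per the authors' deposited tables. Its ligand Kitl fell with TTX, at -0.88 and -1.15, and rose with BIC by 2.05 and 2.06, per the authors' deposited tables. In Kit the TTX responses of the arms differed by -0.16 (SE 0.139, adjusted p = 0.858), against 1.86 (SE 0.175) in Pdgfra.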

How the data were processed

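Bru-seq of 16 mouse culture libraries was analysed; 12 ChIP samples were not analysed here. Reads were aligned to mm9 with TopHat2 2.1.0 and Bowtie2 2.2.6, per the submitters' processing notes, which also name DESeq2. The authors' deposited comparison tables give, per the file headers, a mean normalized count (a signal the authors averaged over libraries after scaling), a log2 fold change, its SE, a Wald score that the authors computed, a p-value before and after adjustment for 22919 genes, of which 21192 had a test. Per the file headers, the deposited FPKM table holds a single pooled value for each condition, with bounds. The vehicle knockdown table has no gene names, so 20107 genes were named by their unique mean count and checked by closure of the log2 changes, and 1085 stayed unnamed. Each member was read from these tables. Calls have an adjusted p under 0.05 as deposited, which the response tables give for 15464 to 17510 genes, the vehicle knockdown table for 14237 and the other knockdown tables for all 21192. Differences of responses between arms were computed here with Python 3.11.15, pandas 2.3.3 and SciPy 1.17.1. A two-sided Wald test was used on log2 changes that share no library, Benjamini-Hochberg adjusted over the 18466 genes whose FPKM averaged 0.1 or more. The test was also run on simulated data with independent errors drawn from the deposited SEs, so that run does not check the SEs themselves. The members and gene lists were chosen with earlier results of these data known. Named genes are the members, their neighbours, the 2 genes per list and direction with the smallest adjusted p, the genes most alike in profile (r over 6 conditions), and every gene of a count of 5 or fewer. FPKM starts are given 1-based. The smaller number of libraries in shCtrl vehicle and BIC, and pooled embryos, limit the precision, and p-values cover the spread between these cultures.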

Additional observations from a re-analysis of the deposited data

Results flagged for a closer look

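The response of Pdgfra to TTX differed between the shCtrl and shRai1 arms by 1.86 on the log2 scale (SE 0.175), with the groups moving in opposite directions, at -0.76 in shCtrl and 1.10 in shRai1. This difference between the arms is among the values that led to the family being chosen, so it is given as a description with no test.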

How the results depend on the processing

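Of 265 recomputed results of members under other thresholds, other sets of genes for the adjustment, centred log2 changes and another source of the SE, 252 had a test, of which 243 kept their side of the threshold, 1 lost its call and 8 gained one. The other 13, for Pdgfra and for Pdgfd between the arms, had no adjusted p in the report and moved by less than 1 SE. No called value changed sign, and 1 uncalled value near 0, Pdgfb between the arms in BIC, went from 0.0055 to -0.00014 with centred log2 changes. The count of members called with BIC in shCtrl, 0, became 3 at a threshold of 0.1, 2 when adjusted over genes whose mean count was 50 or more and 2 with centred log2 changes. The count with TTX in shRai1, 2, became 1 at a threshold of 0.01, which lost Pdgfb, and 3 at 0.1, which gained Pdgfd. The cause was not tested. No paired analysis was possible because the files hold no values per library. For the same reason, leaving out each library in turn and the replicate block were not run, so whether 1 library decides a value, above all in the groups of 2, is unknown. Depth limits Pdgfd most, with a mean normalized count of 25.3.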
